A study of Drosophila melanogaster with 6 samples.

Results

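The genes described here carry newly made proteins through the early secretory pathway of Drosophila embryos, or modify collagen on the way. They comprise the channel into the endoplasmic reticulum (ER), the chaperones and oxidoreductases inside it, the collagen-modifying enzymes, the COPII and COPI vesicle coats, and the receptors that sort cargo between the ER and the Golgi. The members were chosen by gene symbol from a list of 41. Of these, 29 had a probe set of their own on the array and are described below, among 10844 genes with a single named probe set chosen per gene. The other 12 are not analysed here, namely SrpRbeta, Calr, Sec23, Sar1, beta'COP, zetaCOP, Arf1, garz, p24-1, Syx5, Rab1 and Rab6. For zetaCOP the probe set is assigned to a further gene as well. No member of the fusion machinery or the Rab GTPases was measured, so 6 steps of the pathway remained.

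RNA was taken from cells sorted by GFP fluorescence out of dissociated TinD-GFP embryos at late stage 11 to early stage 12. GFP-positive cells, which per the labels come from the cardiac mesoderm that expresses Tinman, were measured on 3 arrays. GFP-negative cells of the same embryos, the rest of the embryo, were measured on 3 arrays. Both groups carry the reporter and were separated by the sorting gate. The labels do not say that replicates came from separate embryo collections, so p-values cover only the scatter among these 6 arrays, part of which may be technical. In RNA from sorted pools, fewer cells of a type and less RNA per cell cannot be told apart.

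Secretory and membrane proteins enter the ER through the Sec61 channel, helped by Sec63 and TRAM, and fold there with chaperones and disulfide isomerases. Collagen chains are in addition hydroxylated on proline and lysine inside the ER before they assemble. Folded cargo leaves in COPII vesicles, with Tango1 assisting the export of collagen, and COPI vesicles return escaped ER proteins and receptors from the Golgi. In Drosophila embryos the known bulk cargo of this kind is the collagen IV and laminin of basement membranes.

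The comparison asks which of these genes differed in level between GFP-positive cells and the remaining cells. The collagen-modifying lysyl hydroxylase gene Plod and the disulfide isomerase gene ERp60 rose in GFP-positive cells, by 1.87-fold and 1.30-fold. No member was called as lower. The other 27 of the 29 did not pass the test (limma with level-dependent prior variance, Benjamini-Hochberg adjusted p under 0.05 across the whole array). Over all 13966 probe sets tested, 2.43% passed, 1.54% as higher and 0.895% as lower. Among genes with a mean log2 signal above 4, a range that holds every member, 3.11% passed as higher and 1.93% as lower. The 2 members called, both higher, stand beside those shares. The median log2 difference was 0.046 over the 29 members, -0.023 over all genes and -0.035 over genes with a mean above 4. Of the members, 15 were higher and 14 lower in GFP-positive cells, whatever their p-value.

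All values are log2 signals as deposited, and differences are GFP-positive minus GFP-negative on that scale. No member lay at or below the background level of 2.44, set by the brightest control probe set made for another organism, as a mean of all arrays. In 6 members every GFP-positive array lay above every GFP-negative array, and in 4 members every GFP-positive array lay below. Over all probe sets these shares were 9.47% and 10.2%, and over genes with a mean above 4 they were 13.8% and 17.6%. When 1 prior variance was used for the whole array, 0 of 13966 probe sets passed in limma. The smallest adjusted p was then 0.112, and an unadjusted p under 0.05 was reached by 1482. In that fit 4 members had an unadjusted p under 0.05, namely Plod, ERp60, Sec31 and Sec16.

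**Figure D1:**
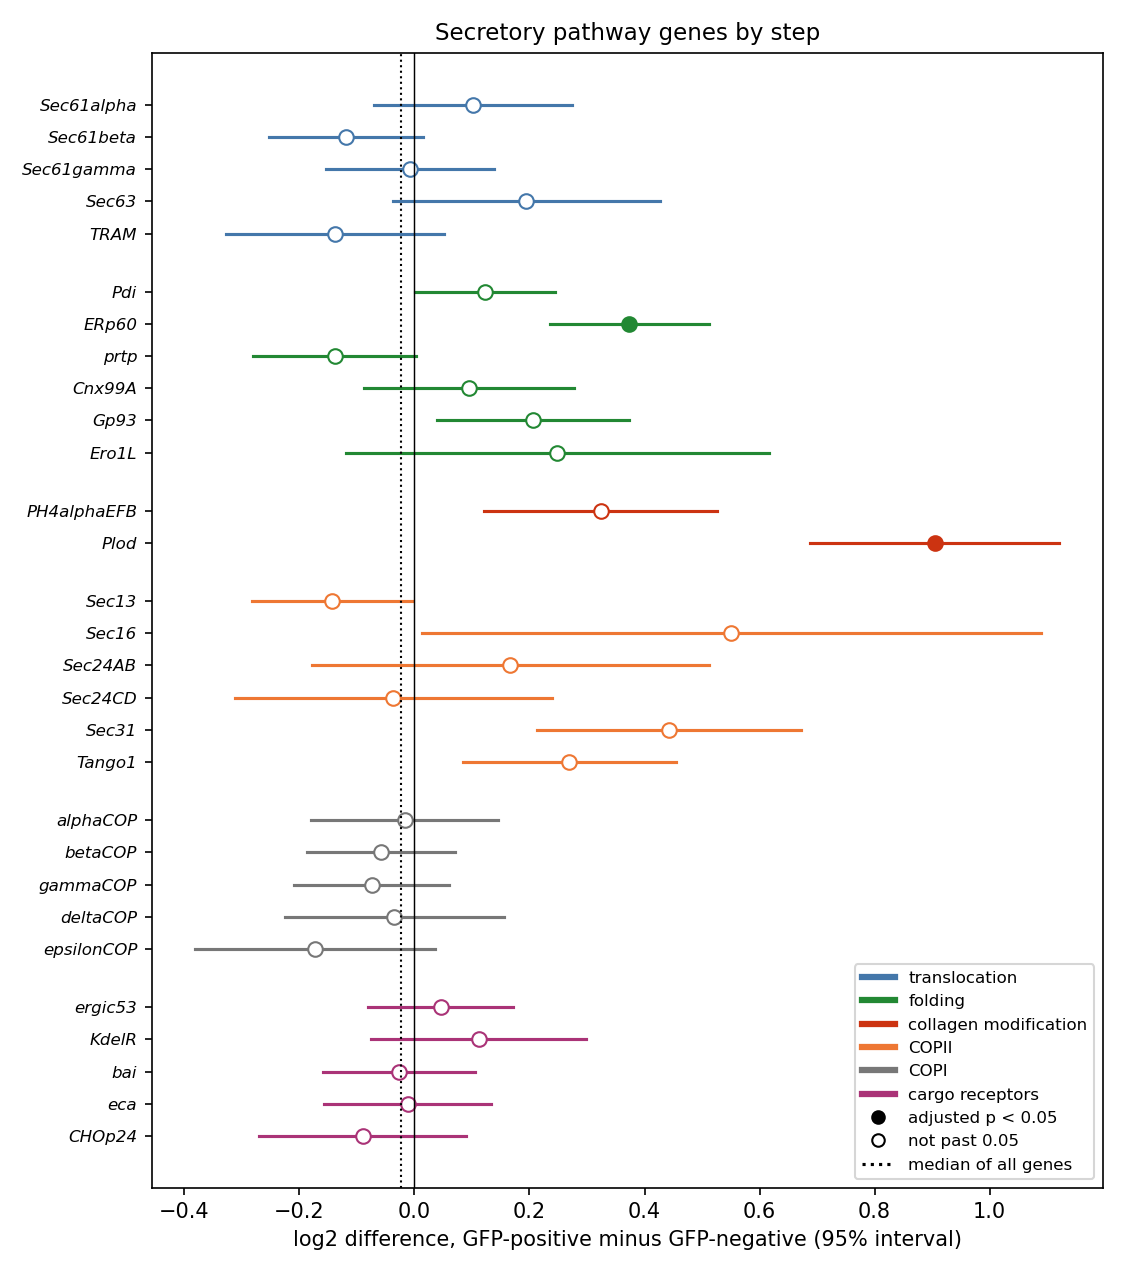
Log2 difference of each measured gene, GFP-positive minus GFP-negative, with its 95% interval from limma, grouped by step of the pathway. Filled points are Plod (0.90) and ERp60 (0.37), the members past the threshold, and the dotted line is the median of all genes (-0.023).

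Collagen modification showed the largest step median of the 6 steps, 0.61 over 2 genes. Plod encodes the lysyl hydroxylase of collagen, with a log2 signal of 6.51, 6.45 and 6.46 on the GFP-positive arrays, against 5.68, 5.53 and 5.50 on the GFP-negative arrays. The groups were far apart, with the GFP-positive arrays nearly equal. It averaged 6.47 ± 0.03 in GFP-positive cells, against 5.57 ± 0.10 in GFP-negative cells (SD over 3 arrays each). The difference was 0.90 ± 0.10 (SE, limma adjusted p = 0.0029), or 1.87-fold with a 95% interval of 1.61 to 2.18. Its call held without any 1 array, with adjusted p-values of 0.0089 to 0.023. With the single prior variance its adjusted p was 0.156, so the call rests on the level-dependent variance.

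PH4alphaEFB encodes the alpha subunit of a prolyl 4-hydroxylase, the enzyme whose product stabilises the collagen helix. Its log2 signal was 7.70, 7.60 and 7.83 on the GFP-positive arrays and 7.42, 7.25 and 7.49 on the GFP-negative arrays. The groups did not overlap, though replicate spread within each was wide relative to the gap. The difference of 0.32 ± 0.09 did not pass (limma adjusted p = 0.111), with a 95% interval of 1.09 to 1.44 as a fold. Its other probe set differed by 0.26 ± 0.15 and its groups overlapped (limma adjusted p = 0.480). After an adjustment for gene span the difference of PH4alphaEFB was 0.18 (limma adjusted p = 0.524). It passed when the dimmest 40% of probe sets were left out before testing (limma adjusted p = 0.048).

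The other collagen prolyl hydroxylase genes of the PH4alpha family gave low signals. Of 7 listed, 5 were measured, and PH4alphaMP and PH4alphaNE3 had both means at or below the background level. None of the 5 passed. The 3 with a mean above background in at least 1 group had log2 differences of 1.15 for PH4alphaSG2, 0.40 for PH4alphaNE1 and 0.42 for PH4alphaNE2, and the GFP-negative mean of PH4alphaSG2 was itself below background. The summed linear signal of the 5 was 27.7 to 48.2 on GFP-positive arrays and 19.1 to 30.3 on GFP-negative arrays, so the ranges overlapped.

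**Figure D2:**
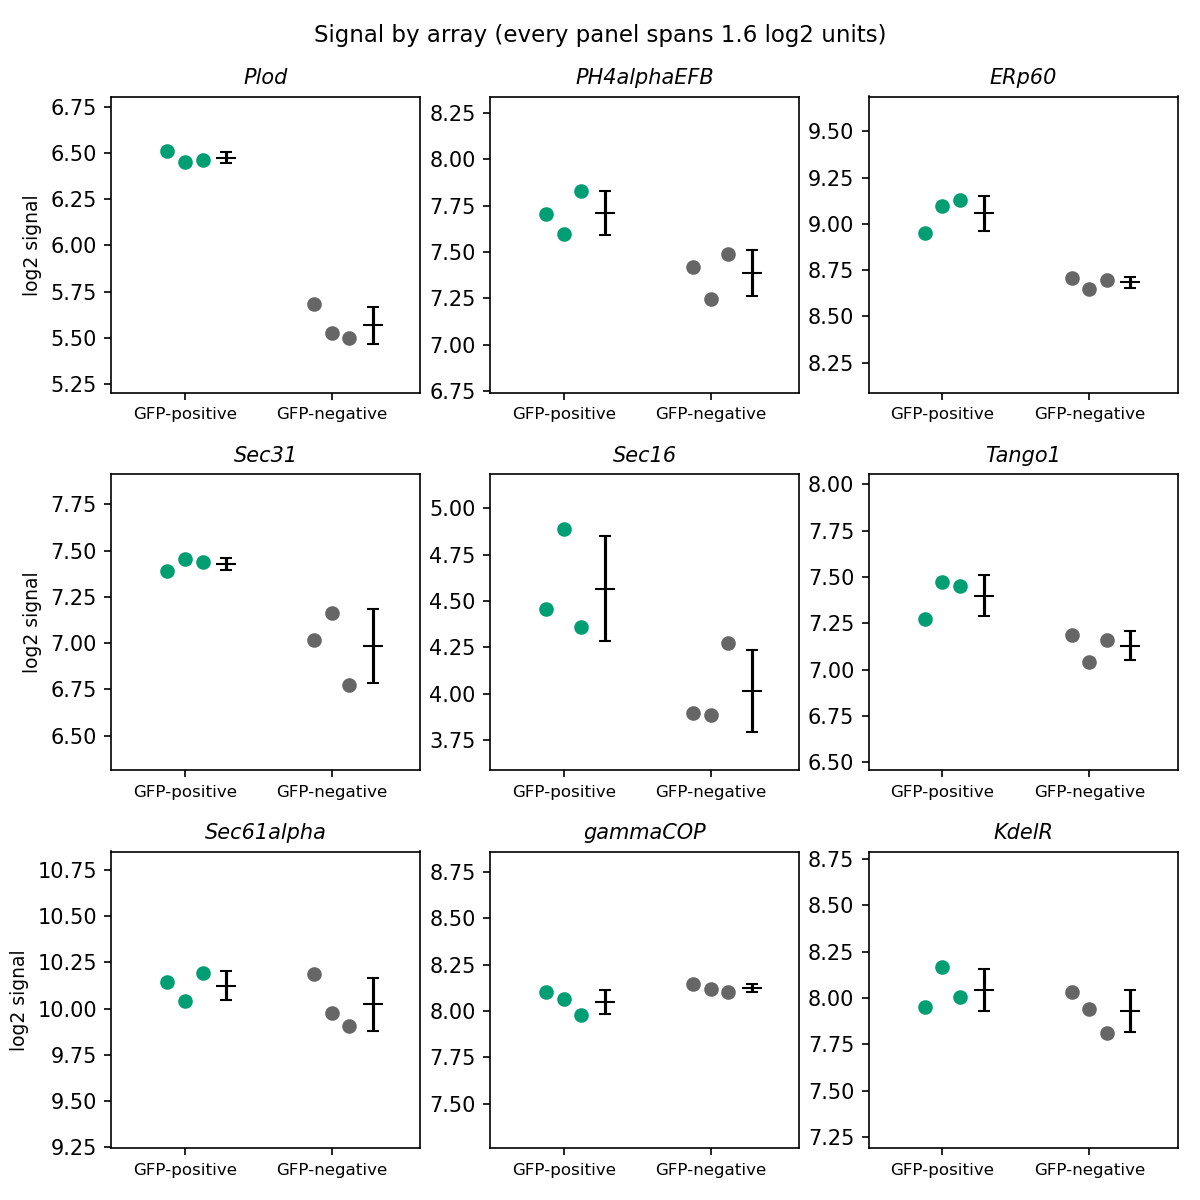
Log2 signal on each array for 9 genes, GFP-positive left and GFP-negative right, with the mean and SD (n = 3) beside the points and every panel spanning 1.6 log2 units. Plod shows the widest gap of the 9 relative to its spread, while the groups of Sec61alpha, gammaCOP and KdelR overlap.

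The folding step had a median difference of 0.16 over 6 genes, 5 of them higher, and 1 of the 6 was called. ERp60 encodes a protein disulfide isomerase of the ER that acts with calnexin and calreticulin in glycoprotein folding, as known from mammalian cells. On the log2 scale it measured 8.95, 9.10 and 9.13 on the GFP-positive arrays, against 8.71, 8.65 and 8.69 on the GFP-negative arrays. The lowest GFP-positive array thus lay above all GFP-negative arrays. The difference was 0.37 ± 0.06 (SE, n = 3 each, limma adjusted p = 0.018), a fold of 1.30 with a 95% interval of 1.18 to 1.43. The call was lost without GFP-positive replicate 2 (limma adjusted p = 0.089) or 3 (0.077), and without GFP-negative replicate 2 (0.068) or 3 (0.076). The difference itself stayed between 0.34 and 0.43 in all 6 fits without 1 array.

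Pdi encodes the main protein disulfide isomerase, which is also the beta subunit of prolyl 4-hydroxylase. The log2 signal of Pdi was 9.93, 9.89 and 9.99 on the GFP-positive arrays and 9.81, 9.89 and 9.74 on the GFP-negative arrays. The groups touched, and the difference of 0.12 ± 0.05 did not pass (limma adjusted p = 0.326). Its 95% interval was 1.00 to 1.18 as a fold.

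Gp93, the ER member of the Hsp90 family, differed by 0.21 ± 0.07 with adjusted p = 0.226. Its GFP-positive arrays were at 10.07, 9.96 and 9.87 and its GFP-negative arrays at 9.90, 9.69 and 9.70, so the ranges overlapped slightly. Ero1L, the oxidase that recharges disulfide isomerases, differed by 0.25 ± 0.16, and the lectin chaperone gene Cnx99A by 0.10 ± 0.08. The pretaporter gene prtp, a thioredoxin-domain protein of the ER, ran the other way. It had log2 signals of 8.13, 7.99 and 8.03 in GFP-positive cells, against 8.18, 8.23 and 8.15 in GFP-negative cells, a difference of -0.14 ± 0.06 that did not pass (limma adjusted p = 0.347).

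COPII genes varied among themselves, with a median of 0.22 over 6 genes, 4 higher and 2 lower, and none called. Sec31, a subunit of the outer coat, gave a log2 signal of 7.39, 7.45 and 7.44 on the GFP-positive arrays, against 7.02, 7.16 and 6.77 on the GFP-negative arrays. The GFP-positive arrays were close together and all above the GFP-negative ones, which spread more widely. The difference of 0.44 ± 0.10 did not pass (limma adjusted p = 0.062). It passed when the dimmest 40% of probe sets were left out before testing (limma adjusted p = 0.021).

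Sec16, the scaffold of ER exit sites, differed by 0.55 ± 0.24 (limma adjusted p = 0.322). Its log2 signal was 4.46, 4.89 and 4.36 on the GFP-positive arrays and 3.89, 3.88 and 4.27 on the GFP-negative arrays. The groups did not overlap, but the nearest arrays were close. A second probe set of Sec16, near the background level, differed by -0.53 ± 0.71, and the mean of both probe sets differed by 0.013. No direction is therefore shown for Sec16.

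Tango1 encodes the ER exit site receptor that assists the export of collagen and other bulky cargo. The gene gave a log2 signal of 7.27, 7.47 and 7.45 on the GFP-positive arrays and 7.19, 7.04 and 7.16 on the GFP-negative arrays. The groups did not overlap, and the lowest GFP-positive array lay close to the highest GFP-negative one. The difference of 0.27 ± 0.08 did not pass (limma adjusted p = 0.148), with a 95% interval of 1.06 to 1.37 as a fold.

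The cargo-binding coat genes Sec24AB and Sec24CD differed by 0.17 ± 0.15 and -0.037 ± 0.12, with overlapping groups. Sec13, the partner of Sec31 in the outer coat, had a log2 signal of 8.11, 8.08 and 7.96 on the GFP-positive arrays and 8.20, 8.18 and 8.20 on the GFP-negative arrays. Every GFP-positive array was lower, by a small margin. The difference of -0.14 ± 0.06 did not pass (limma adjusted p = 0.319). Its 95% interval of -0.28 to -0.0043 did not meet that of Sec31, 0.21 to 0.67. Neither gene was called in the main fit, and these intervals carry no adjustment for gene span. Sec13 also serves in the nuclear pore and other complexes.

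The translocation step had a median of -0.0071 over 5 genes, 2 higher and 3 lower, and none was called. Sec61alpha, the pore-forming subunit, had a log2 signal of 10.14, 10.04 and 10.19 on the GFP-positive arrays and 10.18, 9.98 and 9.91 on the GFP-negative arrays. Its groups overlapped and it differed by 0.10 ± 0.08 (limma adjusted p = 0.616). The small subunit genes Sec61beta and Sec61gamma differed by -0.12 ± 0.06 and -0.0071 ± 0.06. Sec63, a J-domain partner of the channel, differed by 0.19 ± 0.10, and TRAM, a membrane protein beside the channel, by -0.14 ± 0.08. Together, the 95% intervals of these 5 genes lay between 0.80-fold and 1.34-fold.

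COPI genes differed little, within narrow intervals. The 5 coat subunits measured were all slightly lower in GFP-positive cells, with differences of -0.17 to -0.017 and a median of -0.058, and none passed. Their 95% intervals spanned 0.77-fold to 1.11-fold together. gammaCOP had a log2 signal of 8.10, 8.06 and 7.98 on the GFP-positive arrays and 8.15, 8.12 and 8.10 on the GFP-negative arrays, a difference of -0.075 ± 0.06 (limma adjusted p = 0.646). epsilonCOP showed the largest difference of the coat, -0.17 ± 0.09, with 6.02, 5.98 and 5.98 on the GFP-positive and 6.27, 6.12 and 6.12 on the GFP-negative arrays (limma adjusted p = 0.446). Its groups did not overlap. alphaCOP, betaCOP and deltaCOP differed by -0.017 ± 0.07, -0.058 ± 0.06 and -0.035 ± 0.08, and for alphaCOP and deltaCOP the sign turned in some alternative fits.

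Cargo receptors of the ER and Golgi had a median of -0.012 over 5 genes, with none called. KdelR, which retrieves ER proteins that carry a KDEL-type signal, had a log2 signal of 7.95, 8.17 and 8.01 on the GFP-positive arrays and 8.03, 7.94 and 7.81 on the GFP-negative arrays. It differed by 0.11 ± 0.08 (limma adjusted p = 0.614) and its groups overlapped. The lectin receptor gene ergic53 differed by 0.046 ± 0.06. The p24 family genes bai, eca and CHOp24, whose products sort cargo between the ER and the Golgi, differed by -0.027 ± 0.06, -0.012 ± 0.06 and -0.090 ± 0.08. The 95% intervals of the 5 genes lay between 0.83-fold and 1.23-fold.

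**Figure D3:**
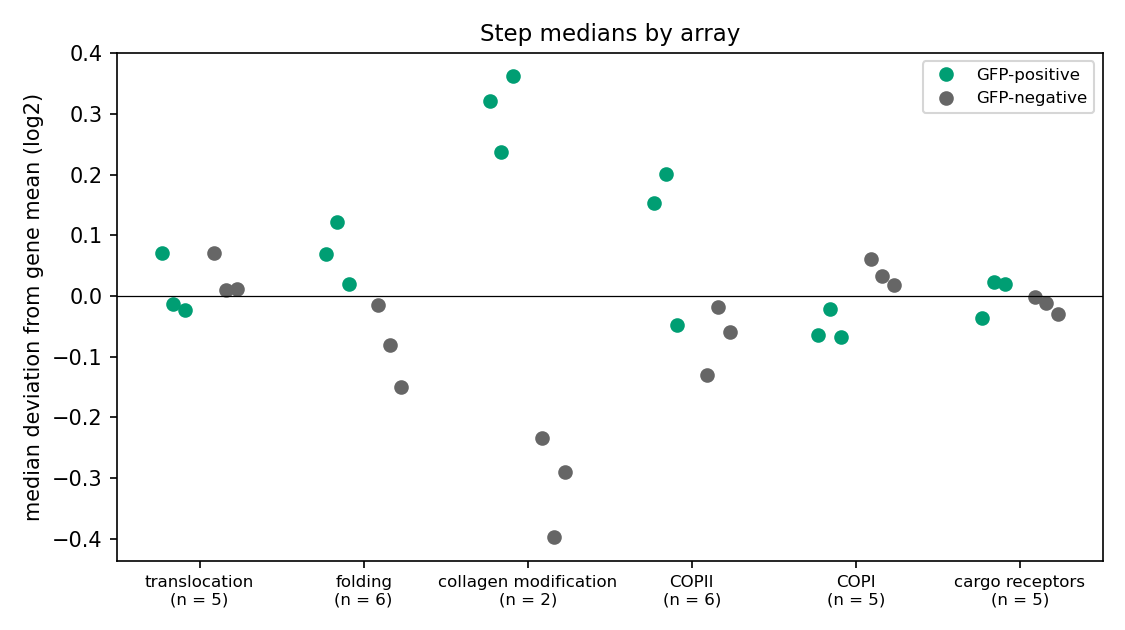
For each step and array, the median over its genes of the log2 deviation from each gene's mean of all 6 arrays, GFP-positive left of GFP-negative. Collagen modification shows the widest gap (0.24 to 0.36 in GFP-positive, -0.40 to -0.23 in GFP-negative), and COPI a small gap the other way (-0.068 to -0.022 in GFP-positive, 0.018 to 0.060 in GFP-negative).

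By array, the collagen modification genes lay above their own means by 0.24 to 0.36 on the GFP-positive arrays, and below them by values of -0.40 to -0.23 on the GFP-negative arrays. No array of either group stood between. COPII genes lay at 0.15, 0.20 and -0.048 on GFP-positive replicates 1, 2 and 3, against -0.13, -0.018 and -0.059 on GFP-negative replicates 1, 2 and 3. GFP-positive replicate 3, on which Sec24AB and Sec24CD had their lowest values, thus fell within the GFP-negative range. Folding genes lay at 0.019 to 0.12 on GFP-positive arrays and at -0.15 to -0.015 on GFP-negative arrays.

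Differences also moved with the annotated span of the genes. Over 5169 genes with a mean above 4 and a known span, Spearman's rho across genes was 0.43, and the median difference was -0.18 in the shortest decile and 0.24 in the longest. Over the 29 members rho was 0.64, given as a description, since all points share the same 6 arrays and genes are not independent replicates. The COPI genes spanned 1105 to 4134 bases and the collagen modification genes 7851 and 19750. In the span deciles that hold the COPI genes the medians of all genes were -0.15 to 0.00023, beside differences of -0.17 to -0.017 for the COPI genes. Their small negative values are therefore no trait of COPI alone. The median of all genes in the span decile of PH4alphaEFB was 0.24, beside its own 0.32, while that of Plod's decile was 0.076 and that of ERp60's was -0.052. For the COPII genes Sec13 and Sec31 the decile medians were -0.088 and 0.076, beside their own -0.14 and 0.44. After the span adjustment Plod differed by 0.81 and ERp60 by 0.40, both still called (limma adjusted p = 0.0065 and 0.033). What links span to signal was not tested.

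**Figure D4:**
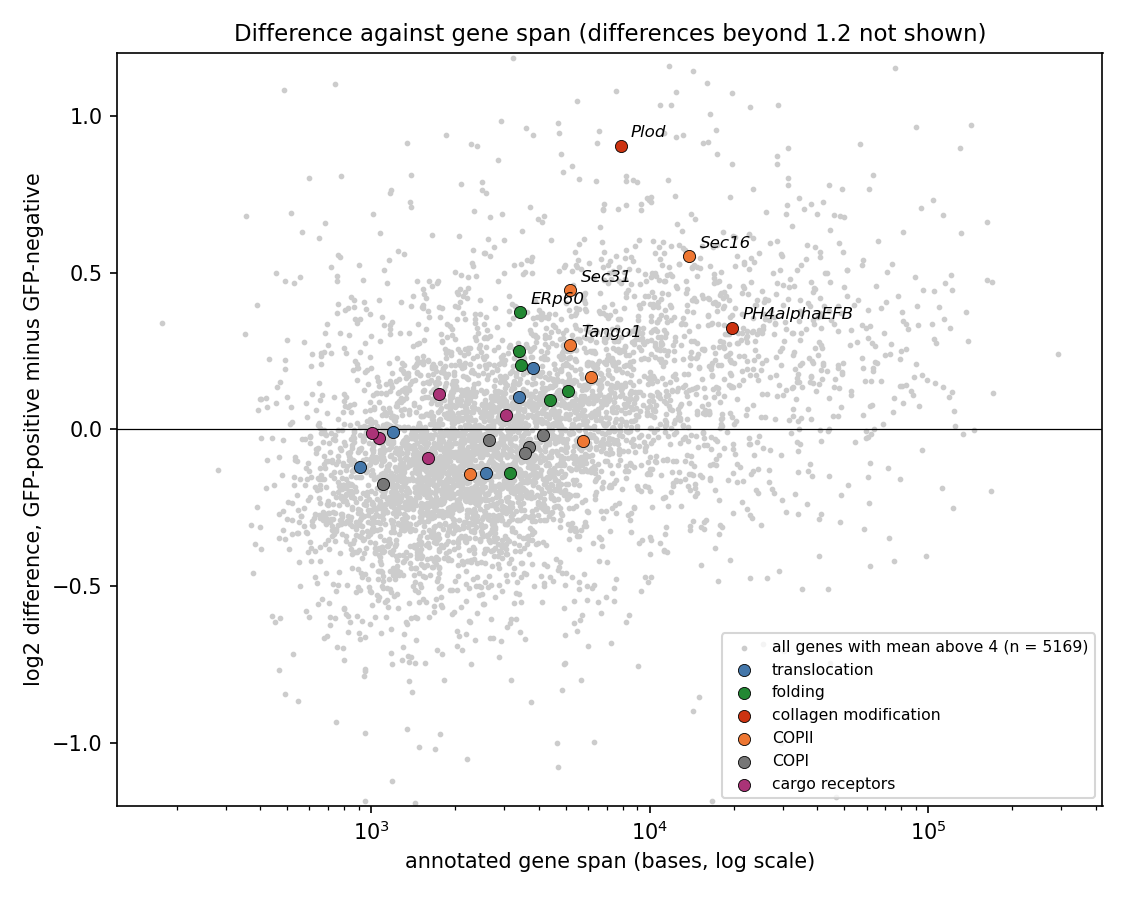
Log2 difference, GFP-positive minus GFP-negative, against annotated gene span on a log axis, with all genes of mean above 4 in grey and the pathway genes coloured by step; 21 grey genes beyond 1.2 are not shown. Longer genes lie higher, and Plod is at 0.90 and 7851 bases, and ERp60 at 0.37 and 3412 bases.

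Other genes of the pathway were taken from 6 lists written for this comparison. Over these lists 94 further genes were measured, with a median of -0.027, and 1 was called as higher and none as lower. Every GFP-positive array was higher in 5 of them and lower in 14. These shares were 9.47% and 10.2% over all probe sets, and 13.8% and 17.6% over genes with a mean above 4. Over all probe sets 1.54% were called as higher and 0.895% as lower, and over genes with a mean above 4 it was 3.11% and 1.93%. The count of calls in the lists does not exceed these shares. The gene that rose was Trp1, the Sec62 subunit of the translocation machinery and a partner of Sec63. Its log2 signal was 6.37, 6.50 and 6.49 on the GFP-positive arrays, against 5.88, 5.88 and 5.96 on the GFP-negative arrays, a clear separation. The difference was 0.55 ± 0.09 (SE, n = 3 each, limma adjusted p = 0.017), or 1.46-fold. The call of Trp1 held without GFP-positive replicate 1 and was lost without any other array, with adjusted p-values of 0.059 to 0.083 there.

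The remaining 13 genes of signal recognition and signal peptidase did not pass, and the list's median was -0.090 over 14. N-glycosylation genes had a median of -0.13 over 14 genes, 12 lower and none called. Further ER chaperones and redox enzymes had a median of -0.024 over 10. Among them was Hsc70-3, the ER Hsp70 (BiP), at 0.22 ± 0.13 (limma adjusted p = 0.503). That value is from the brighter of its 2 probe sets, and the other is not given here. Genes of the unfolded protein response and ER degradation had a median of 0.075 over 15, and those of the Golgi matrix, tethers and sorting -0.012 over 36, with none called in either.

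Of 12 basement membrane genes, which include the cargo of the collagen enzymes, 6 rose in GFP-positive cells, and the median over the 12 was 0.59. Beside this, 1.54% of all probe sets and 3.11% of genes with a mean above 4 were called as higher. The 12 spanned 2758 to 74968 bases, and of the 6 only vkg is given with a span adjustment. The 6 were vkg, LanA, LanB1, LanB2, Ndg and Ppn. Col4a1, wb, SPARC and Pxn had positive differences that did not pass. The differences of trol and Mp were -0.096 and -0.16, with both means of each gene at or below background. With the single prior variance none of the 12 was called, and 9 had an unadjusted p under 0.05. The collagen IV gene vkg had a log2 signal of 4.80, 4.71 and 4.66 on the GFP-positive arrays and 3.50, 3.89 and 3.47 on the GFP-negative arrays. It rose by 1.11 ± 0.23 (limma adjusted p = 0.042), and the call was lost whichever array was left out (0.061 to 0.148) and after the span adjustment (0.096). The other collagen IV gene, Col4a1, had 5.58, 5.41 and 5.19 on the GFP-positive arrays and 4.15, 4.93 and 4.99 on the GFP-negative arrays. These did not overlap, but its difference of 0.70 ± 0.24 did not pass (limma adjusted p = 0.197).

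Markers of other cell types were set beside these values. Hemocyte markers gave a summed linear signal of 573 to 639 on GFP-positive and 530 to 559 on GFP-negative arrays over 11 genes, ranges that did not overlap, with none called. On every GFP-positive array srp, Pxn, ush and Sr-CI were higher and gcm was lower, against 9.47% of all probe sets with no overlap in the higher direction and 10.2% in the lower. Hml, NimC1 and lz had both means at or below background. Salivary gland markers summed to 71.4 to 79.6 on GFP-positive and 71.2 to 85.2 on GFP-negative arrays over 6 genes, with none called. Fat body markers summed to 128 to 158 on GFP-positive and 112 to 152 on GFP-negative arrays over 4 genes, with none called. Somatic myoblast markers summed to 727 to 789 on GFP-positive and 404 to 438 on GFP-negative arrays. Of these 8 genes 5 were called as higher, against 1.54% of all probe sets and 3.11% of genes with a mean above 4. The 8 spanned 5492 to 394149 bases, and no span-adjusted values are given for them. Neural markers summed to 1330 to 1378 on GFP-positive and 1158 to 1245 on GFP-negative arrays over 7 genes, again without overlap, and none was called. Of these, ase and brat were higher and dpn was lower on every GFP-positive array. The largest difference of the list was that of brat, 0.34, a gene of 45943 bases. The 7 spanned 2284 to 79148 bases, and no span-adjusted values are given for them. How specific they are to neural cells was not tested. Tracheal markers summed to 207 to 240 on GFP-positive and 223 to 250 on GFP-negative arrays, and epidermal markers to 417 to 449 on GFP-positive and 440 to 481 on GFP-negative arrays, over 6 genes each with none called. Cardiac mesoderm markers summed to 434 to 460 on GFP-positive and 446 to 531 on GFP-negative arrays over 11 genes, with none called, and pnr, Doc1, Doc2 and Doc3 were lower on every GFP-positive array. The reporter's own gene is not analysed here. Among the cardiac markers eve was higher on every GFP-positive array. The list as a whole did not mark the labelled cell type by higher levels. Some lists shared genes, as pnr was also an epidermal marker and svp a fat body marker, so their sums are not independent. How specific these markers are to the cardiac mesoderm at this stage was not tested. The part of any of these cells in the levels of Plod and ERp60 was not tested.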

How the data were processed

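Affymetrix arrays of 3 GFP-positive and 3 GFP-negative samples were used, grouped by title. The values are log2 signals, 1 for each probe set on each array, as deposited by the authors. The submitters' processing notes name the affy package, while background correction and scaling are unknown: not stated in any source used here. The log base was read as 2 because the values, -3.28 to 12.9, then stay within the range of a 16-bit scanner. Array medians lay between 3.71 and 3.73, so a change shared by most genes could not be seen, and no further scaling was applied. The number of arrays limits the precision.

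Of 14010 probe sets, 44 controls were left out. Genes were named through the platform annotation, never from the 327 probe sets with several genes, and the probe set with the highest mean over the 6 arrays stood for each gene. Gene spans came from the RefSeq gene table by Entrez identifier. Group differences came from limma 3.58.1 under R 4.3.3 (linear model, eBayes with trend and robust options, 2-sided, Benjamini-Hochberg over 13966 probe sets). Exact permutation of 3 against 3 arrays cannot go below p = 0.10, so none was run. Every member could be named; of the other lists, members past the threshold and a few set genes. The members, lists and the choice of fit were made with earlier results of these data known. Pearson's r between arrays was 0.917 to 0.945. Alternatives covered prior variance, replicate block, normalization, array weights, dim probe sets, a pseudocount, gene span, probe set choice and single arrays.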

Additional observations from a re-analysis of the deposited data

How the results depend on the processing

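Of the members called, Plod kept its call in every alternative but the single prior variance (log2 difference 0.60 to 0.96), and ERp60 lost it in that fit and in 4 of the 6 fits without 1 array. Trp1 and vkg, no members, also lost theirs with the single prior variance (adjusted p = 0.252 and 0.186), and vkg with the replicate block (0.070). With the single prior variance 0 members passed, and over all probe sets 0 were higher and 0 lower. With the replicate block 4 members were higher, PH4alphaEFB and Gp93 besides Plod and ERp60. The count over all probe sets in that fit is not given here, so a gain of the members over the whole array is not shown. Correlations of deviations between same-numbered arrays were 0.079, 0.018 and 0.018 over 8943 probe sets, and 0.14, 0.10 and -0.15 over the members. Differently numbered arrays were not compared, so whether the numbers pair the samples was not settled. Without the dimmest 40% of probe sets 4 members were higher, PH4alphaEFB and Sec31 besides Plod and ERp60. Over all 8379 probe sets then tested 389 were higher and 266 lower. This setting changed both the number of tests and the estimated prior variance, and the part of each was not tested. In fits without 1 array 1 to 2 members were higher, and over all probe sets 68 to 130 were higher and 32 to 59 lower. The gene span adjustment, with or without the replicate block, left 2 members higher. It was fitted on the 12394 probe sets with a known span, of which 183 were higher and 107 lower with no adjustment. With the adjustment 94 were higher and 48 lower without the block, 100 and 50 with it, and 89 and 44 when the span trend was taken from probe sets above level 4. The fit with no adjustment and this last setting were chosen after seeing the data.

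The median over the members was 0.090 after span adjustment with or without the replicate block, 0.10 with the trend from brighter probe sets, 0.013 when all probe sets of a gene were averaged, and 0.017 to 0.075 without 1 array. In the same 2 span adjustments the step medians were 0.096 and 0.14 for translocation, 0.50 and 0.46 for collagen modification, and 0.087 and 0.13 for cargo receptors, and with the trend from brighter probe sets that of COPI was -0.022. Collagen modification had 0.44 with 32 added on the linear scale, and COPII 0.090 with the mean of all probe sets. Without 1 array the translocation median was -0.066 to 0.042, COPI -0.086 to -0.032 and cargo receptors -0.034 to 0.023.

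Members that did not pass turned sign in places. After span adjustment with or without the replicate block, Sec61gamma was at 0.096, deltaCOP at 0.016, bai at 0.080 and eca at 0.094. With the trend from brighter probe sets these were 0.14, 0.034, 0.13 and 0.14, with Sec61beta at 0.042 and CHOp24 at 0.030. Without 1 array, signs turned within the ranges of Sec61gamma (-0.066 to 0.042), Sec24CD (-0.12 to 0.080), alphaCOP (-0.074 to 0.013), deltaCOP (-0.10 to 0.0038), bai (-0.060 to 0.0039) and eca (-0.035 to 0.023). No cause of these shifts was tested beyond what each setting does by construction.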
